A study of Arabidopsis thaliana with 6 samples.

Results

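Non-specific lipid transfer proteins (LTPs) of Arabidopsis thaliana were followed across seedlings of the zdp-1 ape2-2 line and of the wild type. The members are 7 genes named in the deposited tables by their locus identifiers, out of 33489 genes listed: LTP1 (AT2G38540), LTP2 (AT2G38530), LTP3 (AT5G59320), LTP4 (AT5G59310), LTP5 (AT3G51600), LTP6 (AT3G08770) and LTP12 (AT3G51590). They were chosen as named members of the family because LTP4 was strongly higher in zdp-1 ape2-2. Values that compare the members between genotypes, and the counts of members past the threshold, are therefore given as a description, with no p for any member. LTP1, LTP2, LTP3 and LTP4 were higher in zdp-1 ape2-2 than in Col-0, LTP5 and LTP6 were lower, and LTP12 had no count in any library.

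Polyadenylated RNA of whole seedlings grown for 14 days on plates was sequenced in 6 libraries. The group zdp-1 ape2-2 (3 libraries, A to C) is labelled a knockout of both ZDP and APE2. Their products, a phosphatase and an endonuclease, clean the 3' ends of broken DNA strands during base excision repair. The group Col-0 (3 libraries, A to C) is the wild type. The labels give no treatment, and they name 1 double-mutant line with no single mutant beside it. The alleles are known here by name alone. The labels do not say whether libraries of a group came from separate cultures, so a p-value reflects the spread of these 6 libraries, and that spread may be technical.

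LTPs are small secreted proteins whose cysteines form disulphide bridges around a cavity that holds a fatty acid or another lipid. They are among the most abundant transcripts of the plant epidermis, where they have been linked to the build-up of the cuticle, the lipid layer of wax and cutin. In Arabidopsis, LTP1 is the classic epidermal member, LTP3 and LTP4 are known for their response to abscisic acid, and LTP12 is known from the tapetum of anthers, a tissue that seedlings lack. As whole seedlings were sequenced, fewer cells of a type and less RNA per cell cannot be told apart in any value below.

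LTP3 and LTP4 are the closest members in sequence, followed by LTP1 and LTP2. LTP3 and LTP4 have 83.9% of their encoded residues and 86.6% of their coding bases in common. LTP1 and LTP2 share 68.6% of residues and 82.2% of coding bases. LTP5 shares 61.0% of residues with LTP1 and 45.1% with LTP12, which lies next to it. The most distant members were LTP6 and LTP12, with 36.0% of residues in common. The annotated coding sequences encode 112 residues in LTP4, 115 in LTP3, 117 in LTP6, 118 in LTP1, LTP2 and LTP5, and 119 in LTP12.

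Each of the 7 members encodes 9 or 10 cysteines, and the last 8 have the same spacing in all members at every step but one. The third stands right beside the next, and 1 residue lies between the fifth and the sixth. Between the sixth and the seventh cysteine there are 19 residues in LTP4, against 22 in LTP3 and LTP12, 23 in LTP1, LTP2 and LTP5, and 24 in LTP6. The coding stretches from the first to the eighth of these cysteines are shown from the TAIR10.1 reference. They set LTP4 (chromosome 5, minus strand), the most changed member, beside LTP3 (chromosome 5, plus strand), its closest relative. Capitals mark the cysteine codons, and the shorter loop of LTP4 lies between the sixth and seventh capital blocks when the double block is counted as 2 codons.
LTP4: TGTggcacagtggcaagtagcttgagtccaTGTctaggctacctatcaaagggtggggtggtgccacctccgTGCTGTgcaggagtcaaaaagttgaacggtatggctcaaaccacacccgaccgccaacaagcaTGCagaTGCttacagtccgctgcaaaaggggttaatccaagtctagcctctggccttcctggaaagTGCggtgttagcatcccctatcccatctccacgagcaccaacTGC
LTP3: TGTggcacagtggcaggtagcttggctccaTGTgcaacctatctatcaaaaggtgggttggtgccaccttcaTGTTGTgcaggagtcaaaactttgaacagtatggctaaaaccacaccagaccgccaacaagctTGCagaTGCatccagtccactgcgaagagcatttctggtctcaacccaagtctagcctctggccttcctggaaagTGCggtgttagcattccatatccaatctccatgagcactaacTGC

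The sequences set how well reads of the members can be told apart. No 50-base word from the exons of any member occurs elsewhere on the 5 nuclear chromosomes. No BLAST match of at least 90% identity over its whole length was found elsewhere for LTP1, LTP2, LTP3, LTP4, LTP5 or LTP12. For LTP6 such a match covered 35 bases, or 4.8% of the exons. Shorter stretches inside a match can be closer. The longest match of LTP4 to LTP3 held 519 bases at 86.7% identity. The 73 bases around the start of LTP4 matched bases before the start of LTP3 at 93.2%. No exon base of a member is overlapped by another annotated gene. How the authors treated reads that align to several places, and whether counting used the strand, is not given in the sources used here.

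Of the members, 3 pairs of genes lie side by side and LTP6 lies alone. LTP2 (chr2:16128176-16129399, plus strand) ends 890 bases before the start of LTP1 (chr2:16130290-16131240, plus strand). LTP4 (chr5:23924990-23925957, minus strand) and LTP3 (chr5:23928954-23929816, plus strand) point away from each other with 2996 bases between their starts. LTP12 (chr3:19135619-19136675, minus strand) and LTP5 (chr3:19138338-19139423, minus strand) are 1662 bases apart. LTP6 lies at chr3:2664069-2664888 on the minus strand. Coordinates are those of the deposited tables and are the same in TAIR10.1.

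LTP1 was the most abundant member by transcript counts in every library. It gave 20369, 19487 and 19936 counts in zdp-1 ape2-2 libraries A, B and C, against 15579, 15503 and 13352 in Col-0. As CPM, a share of the library total after trimmed-mean scaling, these are 534.2, 512.3 and 526.7 CPM in zdp-1 ape2-2, against 431.4, 425.1 and 437.8 CPM in Col-0. All 3 mutant libraries lay above all 3 wild-type libraries. LTP1 averaged 524.4 ± 11.1 CPM in zdp-1 ape2-2 and 431.4 ± 6.35 CPM in Col-0 (SD, n = 3 each), a log2 fold change of 0.28 ± 0.02 (SE). This 1.22-fold difference was small, but LTP1 ranked 206th of 21182 tested genes by mean CPM.

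LTP2, the neighbour of LTP1, stood at 102, 102.5 and 105.5 CPM in zdp-1 ape2-2, against 48.19, 45.57 and 50.13 CPM in Col-0. The groups lay far apart, with the lowest mutant library at 102 CPM and the highest wild-type library at 50.13 CPM. Means were 103.3 ± 1.89 CPM in zdp-1 ape2-2 and 47.96 ± 2.29 CPM in Col-0 (SD, n = 3 each), with a log2 fold change of 1.11 ± 0.03, or 2.16-fold. LTP2 thus differed more than LTP1, its neighbour and closest relative.

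LTP4 showed the largest difference of the family, and it is the value for which the family was chosen. It gave 283, 276 and 259 counts in zdp-1 ape2-2 libraries, against 50, 57 and 51 in Col-0. In CPM these are 7.42, 7.26 and 6.84 in zdp-1 ape2-2, against 1.39, 1.56 and 1.67 in Col-0. Every mutant library was above every wild-type library, and the libraries of a group lay close together. Means were 7.17 ± 0.30 CPM in zdp-1 ape2-2 and 1.54 ± 0.15 CPM in Col-0 (SD, n = 3 each), a log2 fold change of 2.22 ± 0.11, or 4.67-fold. LTP4 ranked 105th of the 21182 tested genes by log2 fold change. The spread between libraries of LTP4 (coefficient of variation 4.16% in zdp-1 ape2-2 and 9.42% in Col-0) was below what counting alone would give, 6.06% in zdp-1 ape2-2 and 13.8% in Col-0, so depth limits its precision.

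LTP3, whose start lies back to back with that of LTP4, had 11.1, 11.6 and 11.8 CPM in zdp-1 ape2-2, against 6.26, 4.88 and 5.87 CPM in Col-0. These values come from 423, 441 and 446 counts in zdp-1 ape2-2 libraries and 226, 178 and 179 in Col-0. The groups did not overlap, and Col-0 library B was the lowest. Means were 11.5 ± 0.36 CPM in zdp-1 ape2-2 and 5.67 ± 0.71 CPM in Col-0 (SD, n = 3 each), a log2 fold change of 1.02 ± 0.08, or 2.03-fold. The difference of LTP3 on the log2 scale was close to that of LTP2 and less than that of LTP4.

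LTP5 and LTP6 were lower in the mutant line. LTP5, the second most abundant member, had 166.5, 166.9 and 161.3 CPM in zdp-1 ape2-2, against 196.7, 198 and 195.6 CPM in Col-0. LTP6 had 39.65, 38.38 and 41.38 CPM in zdp-1 ape2-2, against 47.91, 50.59 and 48 CPM in Col-0. For both genes the highest mutant library was below the lowest wild-type library. LTP5 averaged 164.9 ± 3.11 CPM in zdp-1 ape2-2 and 196.8 ± 1.18 CPM in Col-0 (SD, n = 3 each), with a log2 fold change of -0.255 ± 0.024. LTP6 averaged 39.8 ± 1.501 CPM in zdp-1 ape2-2 and 48.83 ± 1.52 CPM in Col-0, with a log2 fold change of -0.296 ± 0.036.

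LTP12 had 0 counts in all 6 libraries and was not tested. With 3 counts as the limit that a count of 0 allows, its level was under 0.0787 to 0.0793 CPM in the zdp-1 ape2-2 libraries and under 0.0823 to 0.0984 CPM in the Col-0 libraries, for counting error only. Its 14 companion markers of the tapetum summed to 6.29 to 7.08 CPM in zdp-1 ape2-2 and 6.17 to 6.75 CPM in Col-0. Nearly all of this was LAP6, a polyketide synthase gene of pollen wall formation, at 5.71 ± 0.48 CPM in zdp-1 ape2-2 and 5.64 ± 0.28 CPM in Col-0 (SD, n = 3 each). MYB80, MS1, A9, ATA7 and 1 further marker were at 0 in all libraries. LAP6 was the 1 tapetum gene tested and did not pass in edgeR (log2 fold change 0.02 ± 0.09, adjusted p = 0.872), nor at an unadjusted p below 0.05, nor in DESeq2.

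**Figure D1:**
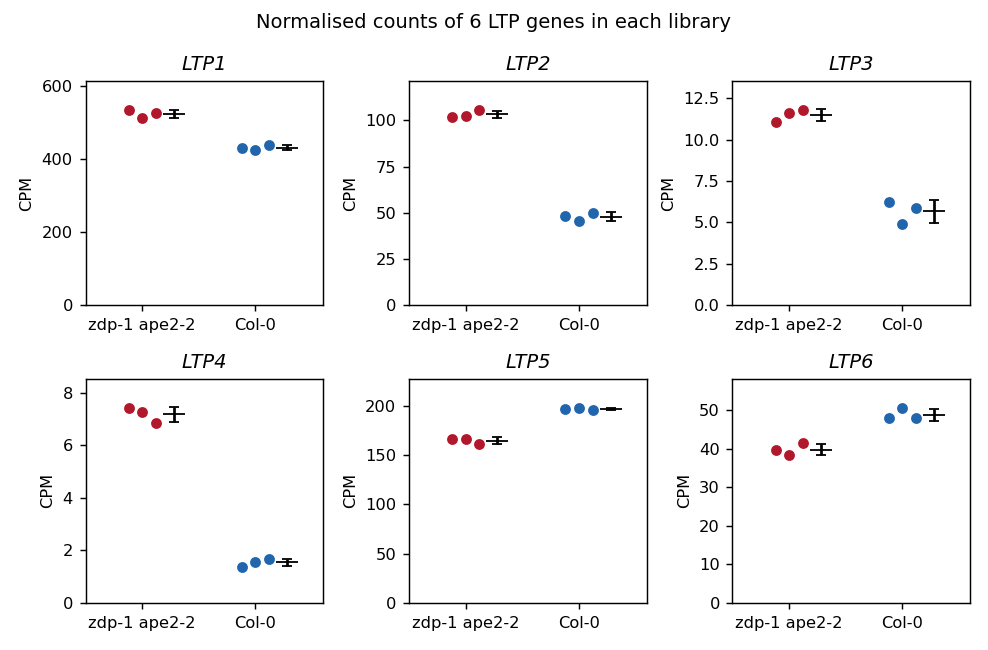
Normalised counts (CPM, linear axes from 0) of LTP1 to LTP6 in each library, with zdp-1 ape2-2 in red on the left and Col-0 in blue on the right; black bars give the mean ± SD of 3 libraries. The groups of each gene are apart, with LTP1 to LTP4 higher and LTP5 and LTP6 lower in zdp-1 ape2-2.

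Of the 7 members, 6 passed the filter on low counts. All 6 had a Benjamini-Hochberg adjusted p below 0.05 in edgeR's quasi-likelihood F test over all genes, 4 higher and 2 lower, where 43.4% of the 21182 genes were called, 22.2% higher and 21.2% lower in zdp-1 ape2-2. In all 6 the groups of 3 libraries did not overlap, which held for 50.3% of genes tested. LTP2, LTP3 and LTP4 were higher by at least 2-fold, as were 2.51% of genes. These counts describe members chosen on this contrast and nothing is read from them. The common coefficient of variation beyond counting was 1.99%, and 9197 genes were called, 4699 higher and 4498 lower. Scaled by library totals alone, 9681 genes were called, 6964 higher and 2717 lower, and the median log2 fold change of all genes was 0.07, against 0.00 after trimmed-mean scaling. The directions of the 6 members were the same under both scalings.

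Ratios of 2 members inside a library do not depend on how libraries are scaled to each other, and are given here as a description. For every 100 counts of LTP3 there were 66.9, 62.6 and 58.1 counts of LTP4 in zdp-1 ape2-2 libraries A, B and C, against 22.1, 32.0 and 28.5 in Col-0. For every 100 counts of LTP1 there were 19.09, 20.01 and 20.03 counts of LTP2 in zdp-1 ape2-2, against 11.2, 10.7 and 11.5 in Col-0. LTP5 ran the other way, with 31.2, 32.6 and 30.6 counts per 100 of LTP1 in zdp-1 ape2-2, against 45.6, 46.6 and 44.7 in Col-0. The LTP6 ratio to LTP1 was also lower in zdp-1 ape2-2, at 7.42, 7.49 and 7.86 per 100, against 11.1, 11.9 and 10.96 in Col-0.

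**Figure D2:**
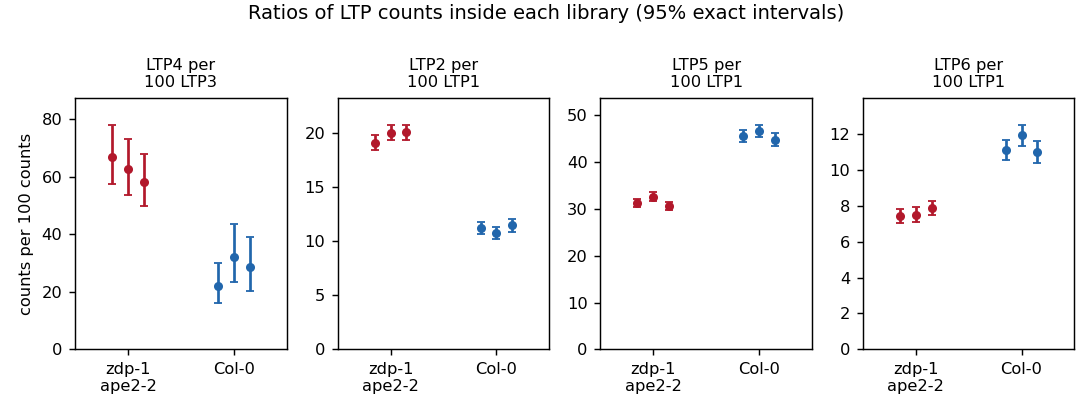
Counts of 1 LTP gene per 100 counts of another in the same library (linear axes from 0), with zdp-1 ape2-2 in red on the left and Col-0 in blue on the right; points are libraries and bars are 95% exact intervals, which cover counting error only. LTP4 per 100 LTP3 runs from 58.1 to 66.9 in zdp-1 ape2-2 and from 22.1 to 32.0 in Col-0, and the LTP5 and LTP6 ratios are lower in zdp-1 ape2-2.

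As a share of all counts, the family was larger in the mutant line. The 7 genes took 0.0859 to 0.0881% of counts in zdp-1 ape2-2 libraries and 0.0711 to 0.0723% in Col-0 libraries. LTP1 made up 61.1 to 62.1% of the family's counts in zdp-1 ape2-2 and 58.6 to 59.2% in Col-0. LTP2 made up 11.9 to 12.4% in zdp-1 ape2-2 and 6.28 to 6.78% in Col-0, and LTP5 18.9 to 19.9% in zdp-1 ape2-2 and 26.5 to 27.3% in Col-0. LTP4, for all its difference, made up 0.802 to 0.865% of the family in zdp-1 ape2-2 and 0.189 to 0.226% in Col-0. LTP1 and LTP2 had the largest differences in CPM.

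The order of levels was set per kilobase of exon, since the exons of the members run from 590 to 1113 bases. LTP1 led at 630.3 ± 13.4 CPM per kb in zdp-1 ape2-2 and 518.5 ± 7.64 CPM per kb in Col-0. LTP5 came second at 168.4 ± 3.18 CPM per kb in zdp-1 ape2-2 and 201 ± 1.201 CPM per kb in Col-0. Next in zdp-1 ape2-2 was LTP2 at 92.84 ± 1.70 CPM per kb and then LTP6 at 54.83 ± 2.07 CPM per kb, whereas in Col-0 LTP6 at 67.26 ± 2.09 CPM per kb stood above LTP2 at 43.09 ± 2.06 CPM per kb. LTP2 and LTP6 thus held opposite places in the 2 genotypes. LTP3 followed at 14.9 ± 0.46 CPM per kb in zdp-1 ape2-2 and 7.37 ± 0.92 CPM per kb in Col-0, and LTP4 at 8.64 ± 0.36 CPM per kb in zdp-1 ape2-2 and 1.86 ± 0.17 CPM per kb in Col-0. No 2 neighbours in either order overlapped between libraries. With coding length in place of exon length, LTP6 at 137.9 ± 4.29 CPM per kb and LTP2 at 134.3 ± 6.41 CPM per kb overlapped in Col-0, so their order there rests on the untranslated parts of the annotated exons.

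**Figure D3:**
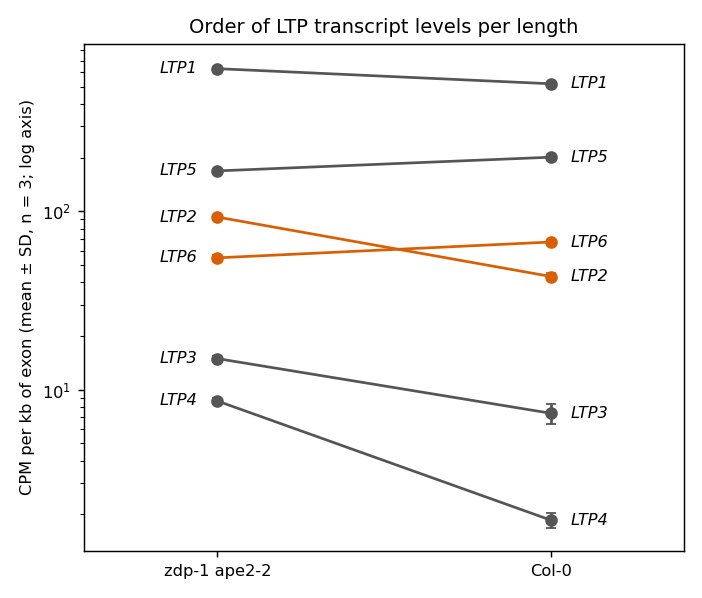
Mean level of LTP1 to LTP6 per kilobase of exon (CPM per kb, log axis), with zdp-1 ape2-2 on the left and Col-0 on the right; points are means of 3 libraries, bars are SDs, and a line joins a gene's means. The lines of LTP2 and LTP6 (orange) cross, with LTP2 at 92.84 CPM per kb in zdp-1 ape2-2 and 43.09 CPM per kb in Col-0.

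The genes that flank the members were described to see whether the differences extended along the chromosome. Of the 8 flanking genes that are no members, 6 were tested and 0 were called by edgeR or by DESeq2. In edgeR 1 had an unadjusted p below 0.05. Over all 21182 genes tested, edgeR called 43.4% and DESeq2 called 6803 genes. With 6 genes tested, how far the differences extended along the chromosome is not settled. AT2G38550, which follows LTP1, had a log2 fold change of -0.003 ± 0.033 (edgeR adjusted p = 0.96). The annotated 3' end of NPU lies 54 bases from LTP5, and NPU had one of 0.006 ± 0.045 (adjusted p = 0.934). The flanks of LTP6, ATSIK and AT3G08780, had log2 fold changes of 0.01 ± 0.04 and 0.06 ± 0.06, and AT3G51580 beside LTP12 one of -0.02 ± 0.04. AT2G38510 and AT5G59305 had too few counts to be tested.

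AT5G59330, which follows LTP3, is annotated as a protein of the wider lipid-transfer superfamily and shares 62.8% of its aligned residues with LTP3 and 60.9% with LTP4. It encodes 87 residues. It averaged 1.99 ± 0.36 CPM in zdp-1 ape2-2 and 2.49 ± 0.14 CPM in Col-0 (SD, n = 3 each), with a log2 fold change of -0.33 ± 0.14 (edgeR adjusted p = 0.0527). Its highest mutant library, 2.31 CPM, was just under its lowest wild-type library, 2.33 CPM. Along chromosome 5, LTP4 and LTP3 were thus higher in zdp-1 ape2-2, and the related gene next to them did not pass the test, with a value on the lower side.

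**Figure D4:**
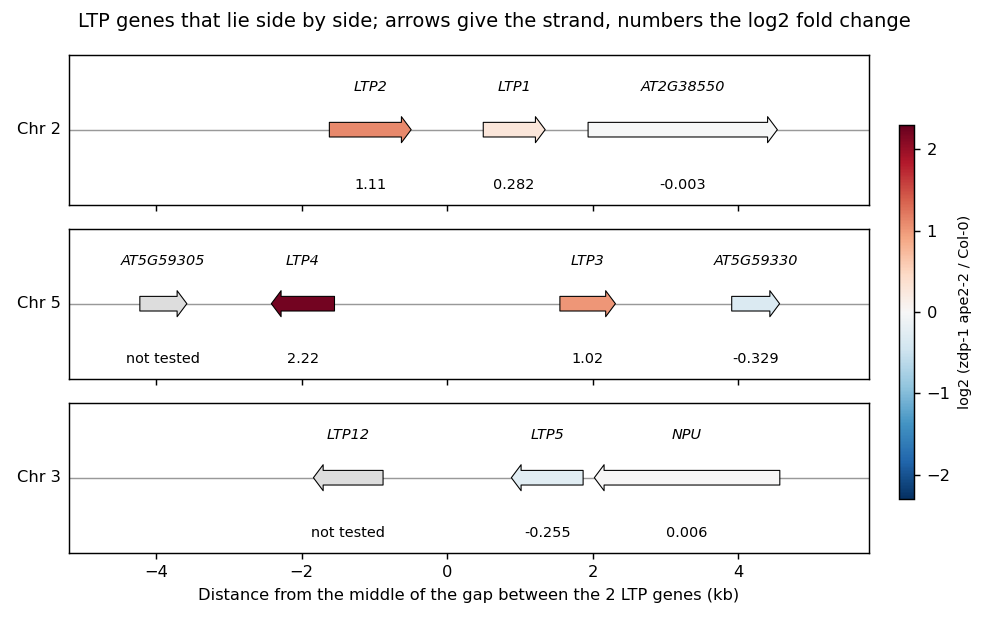
The 3 places where LTP genes lie side by side, drawn to scale as distance in kb from the middle of the gap between the LTP genes; arrows give the strand, and colour and numbers give the log2 fold change of zdp-1 ape2-2 over Col-0, with grey for genes not tested. LTP4 (2.22) and LTP3 (1.02) point away from each other, LTP2 (1.11) lies before LTP1 (0.28), and the tested flanking genes drawn lie between -0.329 and 0.006.

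The 250 bases before the annotated start of LTP4 and of LTP2, the members with the largest differences, are shown from TAIR10.1. The windows lie at chr5:23925958-23926207 on the minus strand and chr2:16127926-16128175 on the plus strand. Capitals mark matches, on either strand, to the L1 box TAAATGNA of epidermal genes in LTP4, and in LTP2 to the SOG1 motif, the core of the abscisic acid response element ACGTG and the core of the dehydration response element CCGAC, in that order.
LTP4: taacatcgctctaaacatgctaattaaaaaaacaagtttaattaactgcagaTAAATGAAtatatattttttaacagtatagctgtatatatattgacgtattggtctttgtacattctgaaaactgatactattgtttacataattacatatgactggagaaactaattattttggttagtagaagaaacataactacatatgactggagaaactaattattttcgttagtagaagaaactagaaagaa
LTP2: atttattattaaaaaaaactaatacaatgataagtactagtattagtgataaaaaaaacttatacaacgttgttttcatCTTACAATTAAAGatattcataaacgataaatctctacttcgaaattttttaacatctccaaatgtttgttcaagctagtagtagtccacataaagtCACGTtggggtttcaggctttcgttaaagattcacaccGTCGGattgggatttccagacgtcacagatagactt

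In windows from 250 bases before to 50 bases after the start, matches on both strands were counted for each member and for 27443 windows of coding genes. The motif bound by SOG1, which switches on genes after DNA damage, was found in LTP2, 171 bases before its start, and in 11.8% of all windows. No other member had a match to it in this window. The abscisic acid response core was found in LTP2 alone (26.7% of all windows), and the G-box CACGTG, which contains that core, in none (7.7%). The dehydration core was found in LTP2 and LTP12 (4128 of all windows), and the L1 box in LTP4, 198 bases before its start and again 10 bases into the transcript (11.3%). The W-box core TTGAC was found in LTP1, LTP3 and LTP4 (50.5%). The windows of LTP5 and LTP6 held none of the 6 motifs. Beyond the first 54 bases before the start of LTP5, its window lies inside the neighbouring gene NPU. These are matches of letters, not known sites.

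The LTP4 window also held a repeat, chosen for mention after it was seen. A stretch of 45 bases from 104 to 60 bases before the start recurred from 54 to 10 bases before it, with 1 mismatch. The longest such repeat in the same window of the other 6 members ran from 9 to 18 bases. The 73 bases around the start of LTP4, from 23 before it into the transcript, matched a stretch from 110 to 38 bases before the start of LTP3 at 68 positions (93.2%). The annotated starts of LTP3 and LTP4 thus lie at different places of a shared sequence.

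The genes whose profile over the 6 libraries was most like that of LTP4, by the distance between centred log2 CPM values among 19214 genes, were CLSY3, PARP2, AT5G38240, TK1a and TSO2. CLSY3 (AT1G05490, listed in the reference as chromatin remodeling 31) was nearest, at a distance of 0.094, and averaged 8.85 ± 0.35 CPM in zdp-1 ape2-2 and 1.84 ± 0.15 CPM in Col-0 (SD, n = 3 each). PARP2, a poly(ADP-ribose) polymerase gene, followed at 0.143, with 54.1 ± 0.60 CPM in zdp-1 ape2-2 and 11.3 ± 0.56 CPM in Col-0. AT5G38240, a protein kinase gene, had a distance of 0.181. The nucleotide synthesis genes TK1a (thymidine kinase) and TSO2 (a ribonucleotide reductase subunit) had distances of 0.222 and 0.232. Log2 fold changes of the 5 genes ran from 2.15 to 2.27, beside 2.22 for LTP4. LTP2 stood 192nd and LTP3 259th in this order. The profiles come from 6 libraries in 2 groups, and 415 genes had a correlation above 0.99 with LTP4. The distance is dominated by the difference between the genotypes, for which LTP4 was chosen, and shared regulation was not tested.

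The other named genes of the same LTP type did not pass where tested. Of 8 genes, LTP7 to LTP11 and LTP13 to LTP15, 3 were at 0 in all libraries and 3 passed the filter. Of these 3 genes 0 were called, by edgeR, by DESeq2 or at an unadjusted p below 0.05. Over all genes edgeR called 43.4%, and 3 genes are too few to set against that share. LTP7 averaged 42.5 ± 0.94 CPM in zdp-1 ape2-2 and 41.6 ± 1.80 CPM in Col-0 (SD, n = 3 each), a log2 fold change of 0.03 ± 0.04 (edgeR adjusted p = 0.585). LTP8 had a log2 fold change of -0.008 ± 0.051 (adjusted p = 0.913) and LTP10 one of -0.036 ± 0.045 (adjusted p = 0.551). The summed level of the 8 genes was 86.9 to 91.8 CPM in zdp-1 ape2-2 and 88.7 to 90.8 CPM in Col-0. LTP7 was called higher, at 0.09, when libraries were scaled by their totals alone. LTP11 was not tested, with 32 counts in zdp-1 ape2-2 and 14 in Col-0. It averaged 0.28 ± 0.05 CPM in zdp-1 ape2-2 and 0.13 ± 0.06 CPM in Col-0, and its groups did not overlap.

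LTPs anchored to the membrane by a glycolipid (GPI) moved both ways. Of 8 genes 6 were tested, 3 were higher and 3 lower, so that all tested were called by edgeR, beside 43.4% over all genes. DESeq2 called 2 higher and 3 lower. Their median was -0.02 on the log2 scale, beside 0.002 over all genes. LTPG1 and LTPG2, which export lipids for the cuticle, were lower: LTPG1 averaged 83.8 ± 5.78 CPM in zdp-1 ape2-2 and 96.8 ± 1.13 CPM in Col-0 (log2 fold change -0.207 ± 0.033, adjusted p = 1.91e-06), and LTPG2 averaged 42.5 ± 1.89 CPM in zdp-1 ape2-2 and 54.7 ± 2.57 CPM in Col-0 (-0.366 ± 0.037, adjusted p = 1.03e-10). XYP1 and XYP2, which encode xylogens that act in vascular differentiation, were higher by log2 fold changes of 0.36 ± 0.06 (adjusted p = 7.62e-06) and 0.34 ± 0.06 (adjusted p = 9.85e-06).

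Lipid-transfer-like genes of systemic immunity were mostly higher. Of the 7 genes of the DIR1 and AZI1 group, 6 were tested, 5 were higher and 1 lower in zdp-1 ape2-2. All tested were thus called by edgeR, beside 43.4% over all genes, and the median of the log2 fold changes was 0.51. DESeq2 called 4 higher and 1 lower. EARLI1 averaged 367.7 ± 10.8 CPM in zdp-1 ape2-2 and 217 ± 10.5 CPM in Col-0 (0.76 ± 0.03, adjusted p = 3.02e-24). AZI1, which primes defence at a distance, averaged 270.1 ± 5.27 CPM in zdp-1 ape2-2 and 171 ± 5.41 CPM in Col-0 (0.66 ± 0.03, adjusted p = 3.4e-23). AT4G12490 of the same gene cluster was higher by 0.61 ± 0.08 (adjusted p = 1.39e-08), with 35.9% of its exon bases under another gene, from which its reads cannot be told apart. AT5G48490 was lower, at -0.534 ± 0.048 (adjusted p = 5.25e-12), and DIR1 was listed at 0 in all libraries, but all of its exon bases lie under other genes, so its 0 gives no measure of its level. The group summed to 664.6 to 693.4 CPM in zdp-1 ape2-2 and 412.1 to 443.7 CPM in Col-0.

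Genes that make the cuticle, the layer to which LTPs are linked, were lower or did not pass where tested, except for KCS6 of wax synthesis, which was higher by 0.08 ± 0.02 (edgeR adjusted p = 0.0065). Of 15 cutin genes 13 were tested, 11 were lower and 0 higher by edgeR, and the median of the log2 fold changes was -0.17. The share called lower was 84.6%, beside 21.2% over all genes. DESeq2 also called 11 lower and 0 higher, and 1 was higher at an unadjusted p below 0.05. The cytochrome P450 genes CYP77A6 and CYP86A4 had log2 fold changes of -0.807 ± 0.085 (edgeR adjusted p = 2.37e-10) and -0.576 ± 0.065 (adjusted p = 1.7e-09). DCR, an acyltransferase gene, averaged 57.2 ± 1.13 CPM in zdp-1 ape2-2 and 75.6 ± 1.24 CPM in Col-0 (-0.403 ± 0.030, adjusted p = 2.94e-14), and GPAT6 had a log2 fold change of -0.247 ± 0.054 (adjusted p = 0.00024).

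Of 17 wax genes 16 were tested, 7 were lower and 1 higher, and the median of the log2 fold changes was -0.04. The share called, 8 of 16, was near the 43.4% over all genes. Over all genes 21.2% were called lower and 22.2% higher, so the wax calls leaned to the lower side. CER1, needed for the alkanes of the wax, averaged 27.5 ± 0.27 CPM in zdp-1 ape2-2 and 42.2 ± 1.32 CPM in Col-0 (-0.617 ± 0.038, adjusted p = 1.36e-16). CER2, with 25.3% of its exons under another gene, was lower at -0.390 ± 0.040 (adjusted p = 1.97e-10), LACS1 at -0.221 ± 0.026 (adjusted p = 4.53e-09) and KCS1 at -0.133 ± 0.033 (adjusted p = 0.00118). With library totals alone as the scale, 4 wax genes were lower and 3 higher and the median was 0.02. Of 13 suberin genes, which build the related lipid barrier of roots, 11 were tested, FAR1 was higher (0.24 ± 0.04, adjusted p = 1.15e-05) and ASFT lower (-0.104 ± 0.033, adjusted p = 0.00988). These are 18.2% of the suberin genes tested, beside 43.4% over all genes.

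Markers of the epidermis, the tissue in which LTP1, LTP2 and the cuticle genes are best known, were mostly lower. Of 8 markers 6 were lower and 1 higher, so that 87.5% were called by edgeR, beside 43.4% over all genes. DESeq2 called 5 lower and 1 higher. The median of the log2 fold changes was -0.19, and the markers summed to 581 to 594.2 CPM in zdp-1 ape2-2 and 632 to 655.9 CPM in Col-0; no marker was at 0. The homeobox genes HDG12, HDG11 and HDG2 had log2 fold changes of -0.336 ± 0.077 (adjusted p = 4.59e-04), -0.271 ± 0.093 (adjusted p = 0.0165) and -0.270 ± 0.058 (adjusted p = 2.00e-04), and 26.2% of the exon bases of HDG2 lie under another gene. FDH, a fatty acid elongase gene, averaged 204 ± 2.50 CPM in zdp-1 ape2-2 and 236.9 ± 4.44 CPM in Col-0 (-0.216 ± 0.024, adjusted p = 8.57e-10). PDF1 was the 1 marker higher, at 0.13 ± 0.03 (adjusted p = 3.46e-04). The part of epidermal cell number in the values of the LTP and cuticle genes was not tested.

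Markers of the root were read in the same way, since the seedlings included roots. Of 13 markers all were tested, 4 were lower and 1 higher. The share called was 38.5%, near the 43.4% over all genes. The median of the log2 fold changes was -0.01, and the markers summed to 3436.8 to 3562.3 CPM in zdp-1 ape2-2 and 3772.7 to 3851.8 CPM in Col-0; no marker was at 0. Nearly all of this sum was PYK10, a beta-glucosidase gene of root ER bodies, at 3354.6 ± 66.9 CPM in zdp-1 ape2-2 and 3640.5 ± 44.5 CPM in Col-0 (SD, n = 3 each; log2 fold change -0.118 ± 0.021, adjusted p = 1.03e-05). The other markers summed to 158.9 to 169.1 CPM in zdp-1 ape2-2 and 163.2 to 171.8 CPM in Col-0, which overlap. The iron uptake genes FRO2 and IRT1 were lower at -0.551 ± 0.073 (adjusted p = 4.67e-08) and -0.265 ± 0.049 (adjusted p = 2.21e-05), CASP1 of the endodermis at -0.342 ± 0.049 (adjusted p = 2.25e-07), and PRP3 of root hairs was higher at 0.23 ± 0.05 (adjusted p = 1.34e-04). The part of root mass in the values of the members was not tested.

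Because LTP3 and LTP4 are known to respond to abscisic acid, 30 genes of the response to this hormone and to drought were read beside them. Of these 28 were tested, 13 were higher and 7 lower, so that 71.4% were called by edgeR, beside 43.4% over all genes. DESeq2 called 11 higher and 5 lower. The median of the log2 fold changes was 0.11, and genes with large differences went both ways. RD29B, a late drought gene below the mean of 1 CPM used to name genes, had the largest rise and was the 1 gene of the list higher by at least 2-fold, with 1.46 ± 0.13 CPM in zdp-1 ape2-2 and 0.51 ± 0.07 CPM in Col-0 (SD, n = 3 each; 1.496 ± 0.212, edgeR adjusted p = 2.03e-07). COR15A averaged 45.5 ± 1.94 CPM in zdp-1 ape2-2 and 27.3 ± 1.41 CPM in Col-0 (0.73 ± 0.04, adjusted p = 5.07e-18), and ATHB7, a homeobox gene induced by the hormone, was higher by 0.62 ± 0.04 (adjusted p = 1.19e-15). KIN1, a cold and drought gene, averaged 7.26 ± 0.79 CPM in zdp-1 ape2-2 and 22.3 ± 1.42 CPM in Col-0 (-1.616 ± 0.065, adjusted p = 1.35e-22), and ADH1, an alcohol dehydrogenase gene, was lower at -0.676 ± 0.025 (adjusted p = 9.68e-24).

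**Figure D5:**
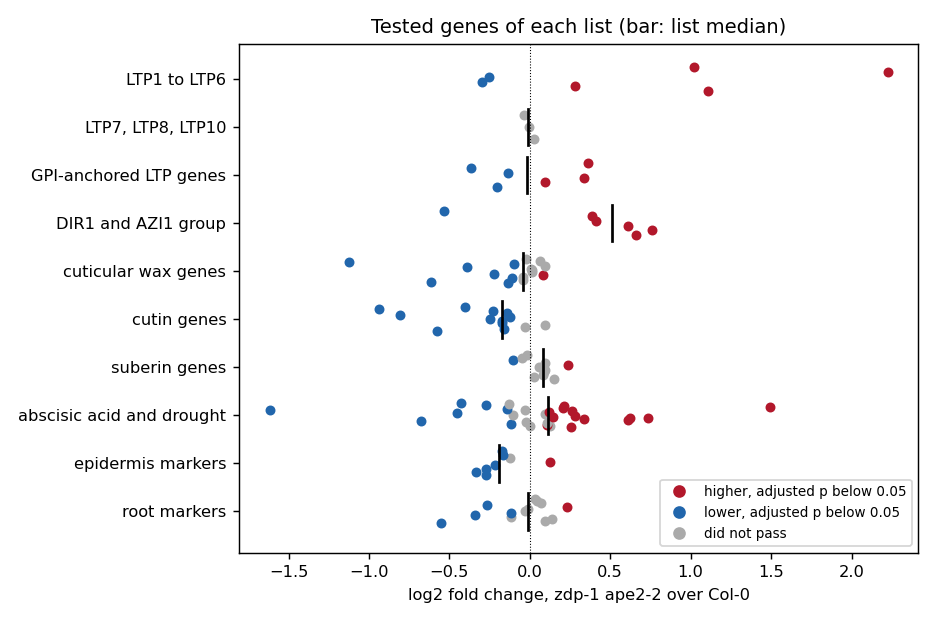
Log2 fold changes of zdp-1 ape2-2 over Col-0 for the tested genes of each list, with 1 point per gene, red for higher and blue for lower at an adjusted p below 0.05 and grey for the rest; black bars are list medians, left out for LTP1 to LTP6, which were chosen on this contrast. LTP4 lies at 2.22 on the right, LTP7, LTP8 and LTP10 lie near 0, and 11 of 13 cutin genes are blue.

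Libraries held 37154781 to 37241739 counts in zdp-1 ape2-2 and 31190605 to 37222185 in Col-0, so that 1 count is worth 0.0262 to 0.0264 CPM in zdp-1 ape2-2 and 0.0274 to 0.0328 CPM in Col-0. The targeted genes were lower but not absent in the libraries labelled as their knockout: ZDP averaged 17.9 ± 1.43 CPM in zdp-1 ape2-2 and 29.4 ± 1.37 CPM in Col-0 (-0.715 ± 0.050, adjusted p = 4.89e-15), and APE2 averaged 5.75 ± 0.12 CPM in zdp-1 ape2-2 and 8.18 ± 0.87 CPM in Col-0 (-0.506 ± 0.082, adjusted p = 2.65e-06). Another gene lies over 33.6% of the exons of APE2.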

How the data were processed

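The authors deposited 1 table per library, per the file headers, holding for each gene a raw read count in whole numbers. Reads were aligned with STAR to TAIR10, per the submitters' processing notes. The strand setting, counting tool and annotation release, and how multiply aligned reads were handled, are not given in the sources used here. Reads from overlapping or antisense genes may therefore not be told apart. Libraries were grouped by their titles and genotype labels. The members and the gene lists were chosen with earlier results of these data known.

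Counts of 21182 genes kept by filterByExpr were fitted with edgeR 4.0.16 in R 4.3.3 (TMM factors, genotype as the only term, quasi-likelihood F test, two-sided) on all 6 libraries, and p-values were adjusted over all these genes (Benjamini-Hochberg, threshold 0.05). Standard errors were derived from the F statistic, as the absolute log2 fold change over its square root. For the members no p is given. CPM used the TMM-scaled library sizes. The fit was also run on simulated counts with far fewer changed genes and a wider spread than in these data, so that run is no check of these calls. Alternatives were DESeq2 1.42.0, other scalings, no filter, an assumed biological coefficient of variation of 0.1, replicate letters as a block, and each library left out. Profiles like that of LTP4 were ranked by Euclidean distance between centred log2 CPM values over 6 libraries.

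Named were all members, the tested genes of the same LTP type, the direct neighbours, the 5 nearest profiles, and from each other list the 4 called genes with the largest absolute log2 fold change, a mean of at least 1 CPM and groups that do not overlap (otherwise the 2 most abundant); LAP6, PDF1, KCS6, PYK10, RD29B, DIR1, ZDP and APE2 were named for other reasons. Symbols and products came from the TAIR10.1 reference of RefSeq. All 33489 identifiers matched it, 33309 with the same coordinates. Sequences were read from its chromosomes with Python 3.11.15; 99.24% of 3437 introns of coding genes with 1 isoform and 1 intron had GT and AG ends there. Proteins were translated from the annotated coding sequence and aligned with Biopython 1.88. Copies of the exons were sought by BLAST 2.17.0, and 90% identity or more was asked of each match as a whole. Intervals on ratios are exact (Clopper-Pearson) at 95% and, like the floor of 3 counts, cover counting error only.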

Additional observations from a re-analysis of the deposited data

How the results depend on the processing

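Over 12 alternatives the log2 fold changes of the members kept their signs and ran from 0.27 to 0.34 for LTP1, 1.07 to 1.17 for LTP2, 0.92 to 1.11 for LTP3, 2.15 to 2.29 for LTP4, -0.27 to -0.19 for LTP5 and -0.33 to -0.23 for LTP6. An assumed biological coefficient of variation of 0.1, far above the 1.99% measured, left 2428 genes called, 1668 higher and 760 lower. By construction it raises the spread: it left 3 members called (LTP2, LTP3 and LTP4), 2 GPI-anchored, 3 wax, 4 cutin, 0 suberin, 8 abscisic acid, 0 epidermis, 1 root and 18 superfamily genes. Library totals as the only scale gave 4 suberin genes and 1 gene of the LTP type (LTP7), and DESeq2 gave 1 suberin gene; the cause was not tested. With each library left out, 8214 to 8621 genes were called, and 0 to 1 of the other LTP-type genes, the 1 being LTP11 (edgeR adjusted p = 0.0454) without Col-0 A. Using the replicate letters as a block gave 9450 genes called, against 9197 without it. Deviations of libraries that share a letter correlated at -0.007, 0.066 and 0.013, and those of unlike letters at -0.05 to 0.037. With 3 libraries per group, these values cannot settle whether the letters pair the samples. DESeq2 called 6803 genes. Depth limits LTP4, whose spread was below that of counting in both genotypes.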

Other observations

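The wider superfamily to which the LTPs belong, taken by product name from the reference and without the LTP family, was added as a list after the tables were seen, and it shares genes with the lists above. Of its 112 genes 43 were listed at 0 in all libraries, some of them with nearly all exon bases under other genes, and 46 were tested. In edgeR 18 were higher and 12 lower in zdp-1 ape2-2, with a median log2 fold change of 0.04. The share called was 65.2%, beside 43.4% over all genes. AT2G10940 averaged 735.5 ± 8.81 CPM in zdp-1 ape2-2 and 1106.2 ± 26.8 CPM in Col-0 (SD, n = 3 each; -0.589 ± 0.022, edgeR adjusted p = 1.23e-23). AT4G33550 averaged 5.56 ± 0.15 CPM in zdp-1 ape2-2 and 3.29 ± 0.41 CPM in Col-0 (0.75 ± 0.10, edgeR adjusted p = 5.39e-08). The summed level of the list was 2448.6 to 2471.5 CPM in zdp-1 ape2-2 and 2820.9 to 2873.9 CPM in Col-0. Without AT2G10940 it was 1703.0 to 1739.6 CPM in zdp-1 ape2-2 and 1736.0 to 1747.8 CPM in Col-0, which overlap. The sum of LTP1 to LTP6 was 839 to 860.9 CPM in zdp-1 ape2-2 and 725.6 to 739.1 CPM in Col-0.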
